A study of Mus musculus with 14 samples.

Results

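The genes described here are 10 mouse genes for sensing and handling extracellular adenosine and ATP, measured by RNA sequencing in mast cells sorted from ear skin. They are the adenosine receptors Adora1, Adora2a, Adora2b and Adora3, the enzymes Entpd1, Nt5e and Ada, and the nucleotide receptors P2rx1, P2rx7 and P2ry14, and they were found by gene symbol among 55487 genes counted. The set was chosen by its function and because Adora2b was higher after treatment, so the differences between treated and untreated resident cells are given below as descriptions without a test, and so is every value of Adora2b. The 14 libraries formed 3 groups: resident mast cells of untreated mice (libraries 1 to 5), resident mast cells of mice treated with MC903 (libraries 6 to 10), and a group from MC903-treated mice whose label reads bone marrow mast cells (libraries 11, 13, 14 and 15). MC903, also called calcipotriol, is a vitamin D analogue that causes inflammation like atopic dermatitis when put on mouse skin. The labels' protocol speaks of resident cells and of mast cells positive for integrin β7, and the third group was taken to be the latter. Each library held up to 100 cells from both ears. Strain, sex, age, genotype, dose, treatment time and the animal behind each library were not given in the sources used here, so p-values measure the spread between libraries, which may be partly technical.

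Cells under stress or injury release ATP. Ectoenzymes on cell surfaces strip it stepwise to adenosine, which 4 G-protein-coupled receptors sense, and adenosine deaminase then removes it. Entpd1 encodes CD39, which cuts ATP and ADP to AMP; Nt5e encodes CD73, which turns AMP into adenosine; Ada encodes adenosine deaminase, which turns adenosine into inosine. Adora2a and Adora2b raise cyclic AMP through Gs, Adora2b also couples to Gq and needs more adenosine than the other receptors, and Adora1 and Adora3 lower cyclic AMP through Gi. P2rx1 and P2rx7 encode ATP-gated cation channels, the latter opening at high ATP, and P2ry14 encodes a receptor for UDP-glucose. Mast cells are known to release histamine and cytokines in response to adenosine and ATP, and in mouse mast cells Adora3 is the receptor best known for promoting degranulation.

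Per kilobase of exon, Adora3 made up most of the adenosine receptor transcripts in every resident library. Adora2b made up at most 1.89% in untreated and 35.2% to 50.2% in bone marrow libraries. The sequence just upstream of the RefSeq start of each is therefore shown. RefSeq promoter windows on GRCm38.p6 matched 9 of the 10 genes (15 windows), and the 250 bases before the start are printed 5′ to 3′. Capitals in the Adora2b window (chr11:62248734-62248983, plus strand) mark the GC box GGGCGG or its reverse complement and the sequence CCAAT. Capitals in the Adora3 window (chr3:105904171-105904420, plus strand) mark the AP-1 sequence TGANTCA. This window lies inside the counted Adora3 gene (chr3:105870858-105908926), so its RefSeq start is not the start of the counted gene.
Adora2b: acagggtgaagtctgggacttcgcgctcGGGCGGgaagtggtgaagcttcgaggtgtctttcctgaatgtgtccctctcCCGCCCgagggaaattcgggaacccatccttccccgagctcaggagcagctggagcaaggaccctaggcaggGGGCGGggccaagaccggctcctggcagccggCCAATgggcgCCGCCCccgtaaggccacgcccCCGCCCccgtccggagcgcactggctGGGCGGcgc
Adora3: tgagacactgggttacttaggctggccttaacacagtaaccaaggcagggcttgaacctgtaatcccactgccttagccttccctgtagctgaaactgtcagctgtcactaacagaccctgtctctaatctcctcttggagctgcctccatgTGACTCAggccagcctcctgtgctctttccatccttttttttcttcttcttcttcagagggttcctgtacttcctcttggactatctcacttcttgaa
The Adora2b window was 69.6% G or C and held 6 GC boxes and 1 CCAAT sequence. The Adora3 window was 48.8% G or C and held 1 AP-1 sequence and no GC box. Over all 32851 windows, searched on both strands, the median G or C content was 52.4%, and 32.74% held a GC box, 33.85% CCAAT and 6.75% the AP-1 sequence. Neither window held the cyclic AMP response element TGACGTCA, which 1.55% of all windows held, nor its shorter form TGACG, which 17.77% held. Such matches describe the letters only.

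Total counts ran from 13068078 to 31781926 per library. All 10 mast cell markers checked, among them Kit, Cpa3 and Mcpt4, had over 3 counts in every library. Library 15, a bone marrow library, stood apart: its macrophage and dendritic cell markers summed to 12742 CPM (counts scaled to a common library total), with 10 of 11 over 3 counts and none at 0, against 57.7 to 357 CPM in the other 13 libraries. In library 15 the complement gene C1qb stood at 2239 CPM and Csf1r, the macrophage growth factor receptor, at 1094 CPM, against at most 7.67 and 10.3 CPM elsewhere. Mcpt8, a basophil protease, stood at 979, 206, 83.5 and 46.2 CPM in libraries 11, 13, 14 and 15 and at 3.12 to 57.1 CPM in the resident libraries. The other basophil markers differed from it. Itga2 stood at 36.1, 36.1, 27.6 and 22.7 CPM in those libraries and at 53.0 to 140 CPM in the resident libraries. Cd200r3 stood at 527, 533, 582 and 222 against 420 to 711 CPM. Il3ra stood at 62.9, 33.0, 77.8 and 45.9 against 22.9 to 57.5 CPM, and Prss34 at 4.77, 15.9, 0.384 and 0 against 0 to 41.7 CPM. The 6 neutrophil markers summed to 74.5 CPM in library 15, nearly all from Csf3r (74.1 CPM) with S100a8 and S100a9 at 0, and to at most 4.18 CPM elsewhere. The 5 platelet markers summed to 1315 CPM in library 15, of which Pf4 made 922 CPM with Gp1bb and Ppbp at 0, and to 279 to 891 CPM elsewhere, mostly from Itga2b, with Pf4 at no more than 5.46 CPM. Endothelial markers summed to 1.56 to 7.52 CPM in untreated, 9.43 to 29.6 in MC903 resident and 8.36 to 40.2 in bone marrow libraries. Pecam1 was the largest of them in bone marrow libraries 11 and 13 (35.9 and 39.9 CPM), where Cdh5, a defining endothelial gene, stood at 0.0837 and 0 CPM. T cell markers summed to 0.616 to 6.16, 1.49 to 43.9 and 4.1 to 84.1 CPM in the 3 groups, mostly from Cd4, which reached 80.2 CPM in library 13, where Cd3e, Cd3d and Cd3g were at 0. Keratinocyte and fibroblast markers summed to at most 13.8 and 32.1 CPM in any library. Libraries 7, 8 and 15 had a count for 34560, 35246 and 32814 genes, the others for 16025 to 28790. Results that rest on these libraries are given with and without them where a fit was possible. Apart from the values without library 15, the part that these other-cell transcripts have in the group differences was not tested.

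Adora2b was lowest in untreated resident cells, intermediate in MC903 resident cells and highest in the bone marrow group. Its CPM, which include the TMM scaling of each library, in untreated libraries 1 to 5 were 2.26, 1.06, 0.075, 5.12 and 2.14. In MC903 resident libraries 6 to 10 they were 38.2, 56.7, 31.4, 21.5 and 65.0, and in bone marrow libraries 11, 13, 14 and 15 they were 120, 135, 159 and 123. No library of one group reached the range of another, and library 15 lay within the other bone marrow libraries. The means were 2.13 ± 1.89 (SD, n = 5), 42.5 ± 18 (SD, n = 5) and 134 ± 17.5 CPM (SD, n = 4). The fitted difference was 4.33 ± 0.638 (log2 fold change ± SE), or 20.1-fold, between MC903 and untreated resident cells, and 1.65 ± 0.586, or 3.14-fold, between bone marrow and MC903 resident cells. Against untreated cells the bone marrow group differed by 5.98 ± 0.696 on the log2 scale. Over the alternatives and with each library left out in turn, the log2 difference between MC903 and untreated resident cells lay between 4.03 and 5.17. Adora2b was chosen for this rise, so the range describes the fits and lends the rise no support. Libraries were made from sorted pools, so fewer cells with a transcript and less of it per cell cannot be told apart.

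Between MC903 and untreated resident cells 2.13% of the 21014 genes that passed the filter on low counts were higher without overlap. Adora2b was among them by the choice of the set, so nothing is read from that, and no test of any of the 10 genes is given for this contrast. On GRCm38, Adora2b (ENSMUSG00000018500.2) spans chr11:62248984-62266453 and was counted over 1845 exonic bases.

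**Figure D1:**
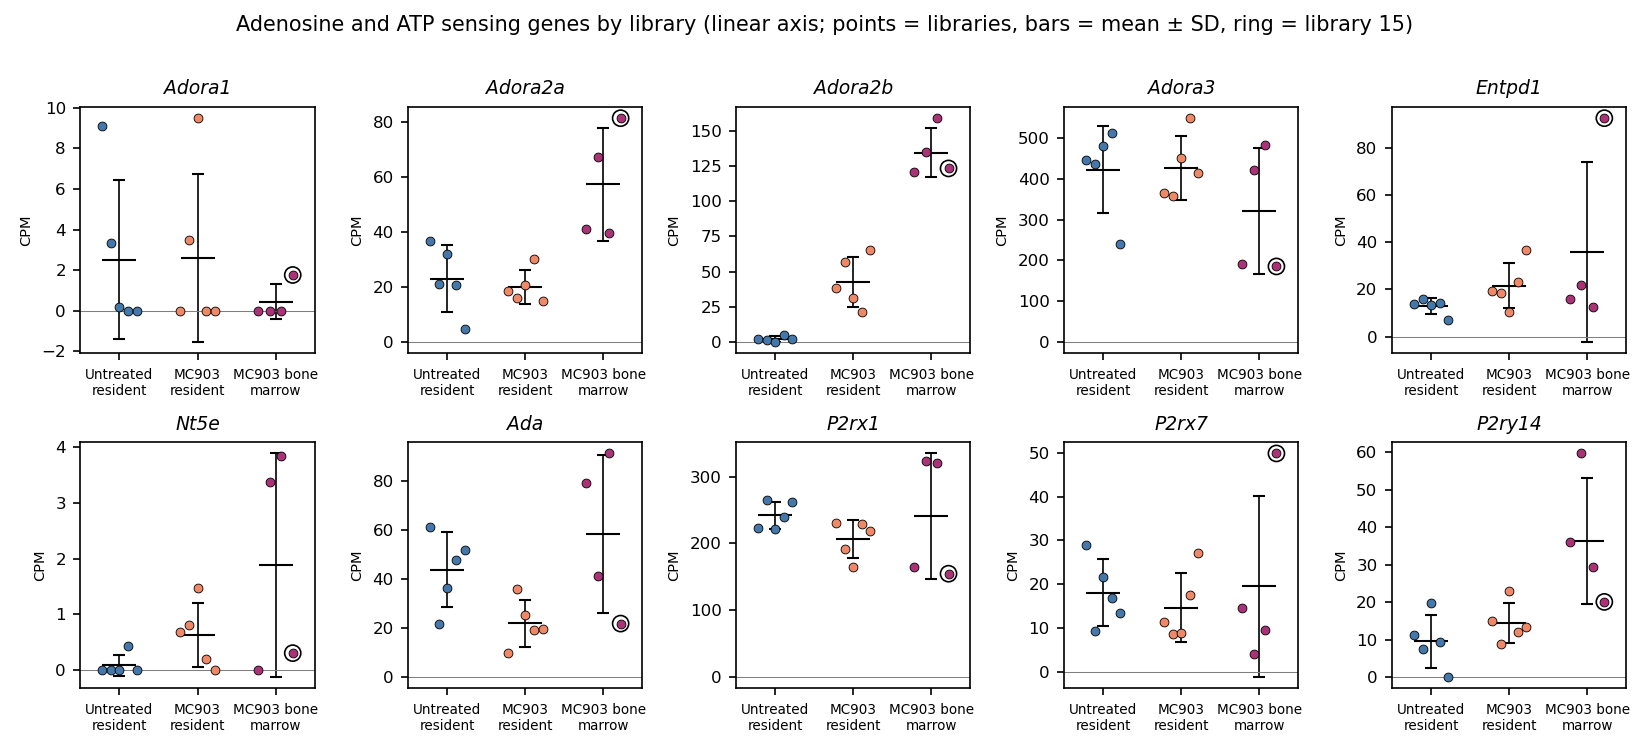
CPM of each of the 10 genes (vertical axes, linear, with a scale of their own) in each library, by group; points are libraries, bars the mean ± SD, and a ring marks library 15. The 3 groups do not overlap for Adora2b, while library 15 lies far above the other bone marrow libraries for Entpd1 and P2rx7.

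Adora3 was the adenosine receptor with the highest level in resident cells, with and without MC903. Its CPM were 447, 437, 480, 512 and 240 in untreated libraries 1 to 5 and 364, 358, 450, 549 and 416 in MC903 resident libraries 6 to 10. The bone marrow libraries 11, 13, 14 and 15 held 191, 421, 484 and 185 CPM. The bone marrow libraries thus fell into a high and a low pair, and all 3 groups overlapped. The log2 difference between MC903 and untreated resident cells was 0.022 ± 0.257. Bone marrow cells differed from MC903 resident cells by -0.42 ± 0.275 (edgeR adjusted p = 0.441) and from untreated cells by -0.40 ± 0.274 (edgeR adjusted p = 0.444). Neither passed the threshold, an adjusted p under 0.05 in edgeR's quasi-likelihood test with Benjamini-Hochberg adjustment over all genes tested; genes past it are said to be called. Adora3 (ENSMUSG00000000562.5, chr3:105870858-105908926) shares 779 exonic bases, 20.89% of its counted length, with Tmigd3 on the same strand, and how reads there were assigned was not given in the sources used here, so its level is uncertain to that extent. Tmigd3 itself had 199 to 1390 counts.

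Adora2a, the other Gs-coupled receptor, had its highest levels in the bone marrow cells. Untreated libraries 1 to 5 held 36.7, 21.1, 31.9, 20.7 and 4.77 CPM. MC903 resident libraries 6 to 10 held 18.6, 15.8, 20.5, 30.1 and 14.8 CPM. Bone marrow libraries 11, 13, 14 and 15 held 41.0, 67.2, 39.5 and 81.3 CPM, and all 4 lay above every resident library. The difference from MC903 resident cells was 1.52 ± 0.436 on the log2 scale, or 2.86-fold, with a p of 0.00231 and an edgeR adjusted p of 0.0769. From untreated cells it was 1.32 ± 0.435, or 2.49-fold, with an edgeR adjusted p of 0.0754. Both missed the threshold of 0.05 over all genes. DESeq2's Wald test called both (adjusted p = 0.0343 and 0.0302), as did limma with voomWithQualityWeights (adjusted p = 0.0407 and 0.0499). Without library 15, the bone marrow library with the highest Adora2a, the log2 differences were 1.30 and 1.09 (edgeR adjusted p = 0.107 and 0.149). Between MC903 and untreated resident cells the log2 difference was -0.20 ± 0.411. Adora2a (ENSMUSG00000020178.6) spans chr10:75316877-75334784.

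Adora1 was detected in few libraries. It had 161, 81 and 5 counts in untreated libraries 1 to 3, 61 and 149 counts in MC903 resident libraries 7 and 8, 35 counts in bone marrow library 15 and 0 counts in the other 8. Libraries 7, 8 and 15 were those with the most genes detected. The log2 differences of bone marrow cells, -2.56 ± 2.41 from MC903 resident and -2.50 ± 2.40 from untreated cells (edgeR adjusted p = 0.625 and 0.617), were about as large as their standard errors. Between MC903 and untreated resident cells the log2 difference was 0.057 ± 2.08, and it was -1.47 without library 8 and 1.73 without library 1. Without library 15 all bone marrow libraries were at 0 counts, and without libraries 7, 8 and 15 together Adora1 did not pass the filter on low counts, so no difference is given there. Adora1 (ENSMUSG00000042429.8, chr1:134199223-134235431) shares 1162 exonic bases with Mybph on the opposite strand, and whether counting used strand was not given in the sources used here.

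Per kilobase of counted exon, so that genes can be compared, the summed adenosine receptor level was 123 ± 32 CPM per kilobase in untreated, 145 ± 17.2 in MC903 resident and 177 ± 48.3 in bone marrow libraries. Adora3 made up 92.9% ± 2.51 of that sum in untreated libraries, 78.9% ± 6.22 in MC903 resident libraries and 46.3% ± 10.9 in bone marrow libraries (SD, n = 5, 5 and 4). Adora2b made up 1.0% ± 0.801, 16.3% ± 7.18 and 42.4% ± 7.16. Between libraries, the Adora2b share ran from 0.0292% to 1.89% in untreated, from 6.89% to 23.3% in MC903 resident and from 35.2% to 50.2% in bone marrow libraries, without overlap. Adora2a took 5.76% ± 2.55, 4.47% ± 0.999 and 11.3% ± 5.35, and Adora1 took at most 1.17% in any library. Resident cells thus carried mostly Adora3 transcript, and the bone marrow libraries differed in which receptor led. In bone marrow libraries 11 and 15 Adora2b exceeded Adora3, with 50.2% against 39.4% and 46.6% against 34.7%. In libraries 13 and 14 Adora3 exceeded Adora2b, with 54.3% against 35.2% and 56.7% against 37.6%. These shares include Adora2b and carry no test.

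**Figure D2:**
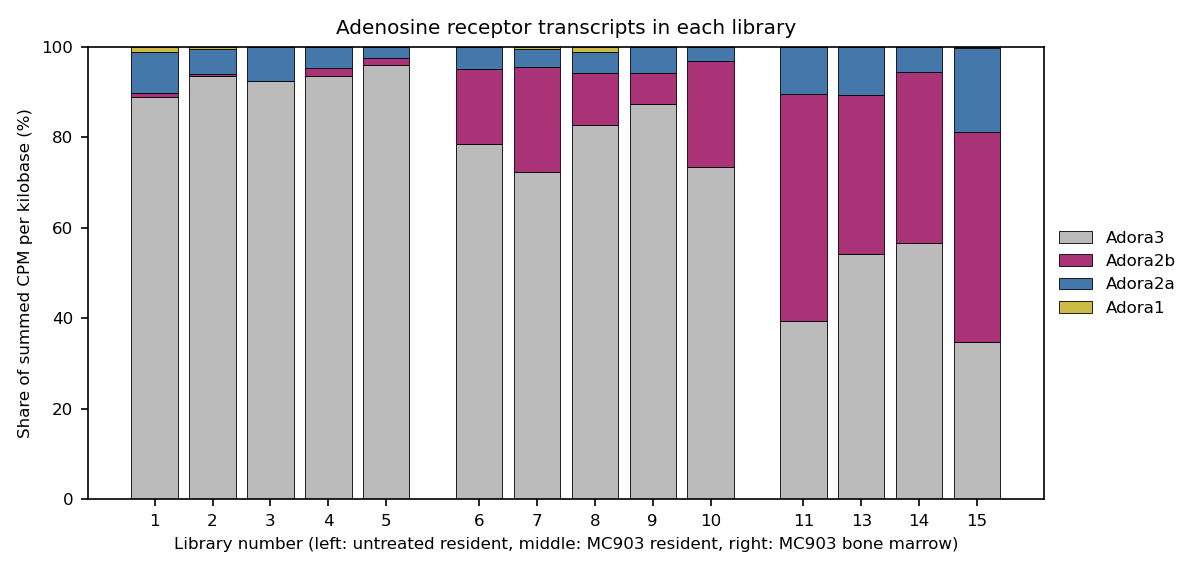
Share of each adenosine receptor (vertical axis, percent of the summed CPM per kilobase of exon) in each library, numbered on the horizontal axis, with 1 stacked bar per library. Adora3 makes up 89.0% to 95.9% in the untreated libraries and 34.7% to 56.7% in the bone marrow libraries, where Adora2b makes up 35.2% to 50.2%.

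Of the enzymes that make adenosine, Entpd1 was low in 13 libraries and high in library 15. Untreated libraries 1 to 5 held 14, 15.8, 13.3, 14.4 and 6.96 CPM, MC903 resident libraries 6 to 10 held 19.3, 18.3, 10.6, 23.1 and 36.5 CPM, and bone marrow libraries 11, 13 and 14 held 16.1, 21.7 and 12.7 CPM against 92.4 CPM in library 15. Bone marrow cells differed by 0.73 ± 0.518 from MC903 resident and by 1.48 ± 0.522 from untreated cells on the log2 scale (edgeR adjusted p = 0.488 and 0.0994). Without library 15 the first was -0.36 and the second 0.38, so the size of both and the direction of the first rested on library 15, the library with the macrophage transcripts. DESeq2 called the difference from untreated cells (adjusted p = 0.0368), and so did edgeR without bone marrow library 14 (adjusted p = 0.0454). Between MC903 and untreated resident cells the log2 difference was 0.75 ± 0.494. Entpd1 (ENSMUSG00000048120.16) spans chr19:40612366-40741602.

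Nt5e was near the limit of detection. It had 9 counts in untreated library 4 and 0 in the other 4 untreated libraries, 13, 14, 23, 4 and 0 counts in MC903 resident libraries 6 to 10, and 0, 97, 90 and 6 counts in bone marrow libraries 11, 13, 14 and 15. At least 10 counts were reached in 0 untreated, 3 MC903 resident and 2 bone marrow libraries, so Nt5e passed the filter on low counts through the treated groups, and its fitted differences are given without a test. They were 2.81 ± 1.90 on the log2 scale with MC903 in resident cells, and for the bone marrow group 1.57 ± 1.89 from MC903 resident and 4.38 ± 2.08 from untreated cells. Without untreated library 4, which leaves all untreated libraries at 0 counts, the differences from untreated cells were 6.91 for MC903 resident and 8.30 for bone marrow cells, and such fitted values depend on the model and are no bound. Without libraries 7, 8 and 15 the 3 differences were 1.71, 3.01 and 4.72. In libraries 13 and 14 its level was 3.37 and 3.84 CPM. Nt5e (ENSMUSG00000032420.8) spans chr9:88327197-88372092.

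Ada, whose product removes adenosine, had its lowest mean in MC903 resident cells. CPM were 61.4, 21.5, 36.4, 47.6 and 51.9 in untreated libraries 1 to 5 and 9.69, 35.9, 25.4, 19.1 and 19.8 in MC903 resident libraries 6 to 10. In bone marrow libraries 11, 13, 14 and 15 they were 79.2, 41.3, 91.2 and 21.8. Libraries 11, 13 and 14 lay above every MC903 resident library, and library 15 lay among them. Means were 43.8 ± 15.3 (SD, n = 5), 22.0 ± 9.61 (SD, n = 5) and 58.4 ± 32.4 CPM (SD, n = 4). Bone marrow cells differed from MC903 resident cells by 1.40 ± 0.416 on the log2 scale, or 2.64-fold, with a p of 0.00298 and an edgeR adjusted p of 0.0889, which missed the threshold. Without library 15 the difference was 1.68 with an edgeR adjusted p of 0.0154, and without libraries 7, 8 and 15 together, a choice made after seeing the data, it was 2.11 with an edgeR adjusted p of 0.0229. Against untreated cells the bone marrow difference was 0.42 ± 0.413 (edgeR adjusted p = 0.631), and between MC903 and untreated resident cells the log2 difference was -0.98 ± 0.395. Ada (ENSMUSG00000017697.3) spans chr2:163726584-163750239.

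P2rx1 was high in every library, and its ranges overlapped between the groups. Its CPM were 222, 264, 221, 240 and 261 in untreated libraries 1 to 5 and 231, 191, 165, 229 and 219 in MC903 resident libraries 6 to 10. Bone marrow libraries 11, 13, 14 and 15 held 164, 323, 321 and 155. As with Adora3, libraries 13 and 14 lay above 11 and 15. The bone marrow difference was 0.21 ± 0.219 from MC903 resident (edgeR adjusted p = 0.666) and -0.0065 ± 0.22 from untreated cells (edgeR adjusted p = 0.994), with log2 values on both sides of 0 under other settings for the second. The log2 difference between MC903 and untreated resident cells was -0.22 ± 0.207, and -0.033 with TMM factors from genes of at least 10 CPM. P2rx1 (ENSMUSG00000020787.14) spans chr11:72999103-73015200.

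P2rx7 was low, at 29.0, 9.41, 21.7, 17.0 and 13.5 CPM in untreated libraries 1 to 5, at 11.3, 8.64, 8.86, 17.6 and 27.2 CPM in MC903 resident libraries 6 to 10, and at 14.6, 4.03, 9.68 and 49.8 CPM in bone marrow libraries 11, 13, 14 and 15. All groups overlapped, and library 15 held the highest value. The log2 difference of bone marrow cells was 0.41 ± 0.595 from MC903 resident and 0.11 ± 0.596 from untreated cells (edgeR adjusted p = 0.777 and 0.948), and without library 15 these were -0.64 and -0.94 (edgeR adjusted p = 0.484 and 0.286), which turned both directions. MC903 and untreated resident cells differed by -0.29 ± 0.564. P2rx7 (ENSMUSG00000029468.17) spans chr5:122643911-122691432.

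P2ry14, the UDP-glucose receptor, had its highest mean in the bone marrow cells. Untreated libraries 1 to 5 held 11.2, 7.61, 19.8, 9.39 and 0.0892 CPM and MC903 resident libraries 6 to 10 held 14.9, 9.04, 23.1, 12 and 13.4 CPM. Bone marrow libraries 11, 13, 14 and 15 held 36.1, 59.7, 29.5 and 20.1 CPM. All bone marrow libraries lay above every untreated library, and library 15 lay below MC903 resident library 8. The log2 difference from untreated cells was 1.92 ± 0.711, or 3.77-fold (edgeR adjusted p = 0.117), and that from MC903 resident cells 1.32 ± 0.703 (edgeR adjusted p = 0.337). Without untreated library 5, where 2 counts were found, the first was 1.60 with an edgeR adjusted p of 0.0374. MC903 and untreated resident cells differed by 0.60 ± 0.666 on the log2 scale. P2ry14 (ENSMUSG00000036381.13, chr3:59113855-59153618) overlaps Med12l on the opposite strand but shares 0 exonic bases with it.

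**Figure D3:**
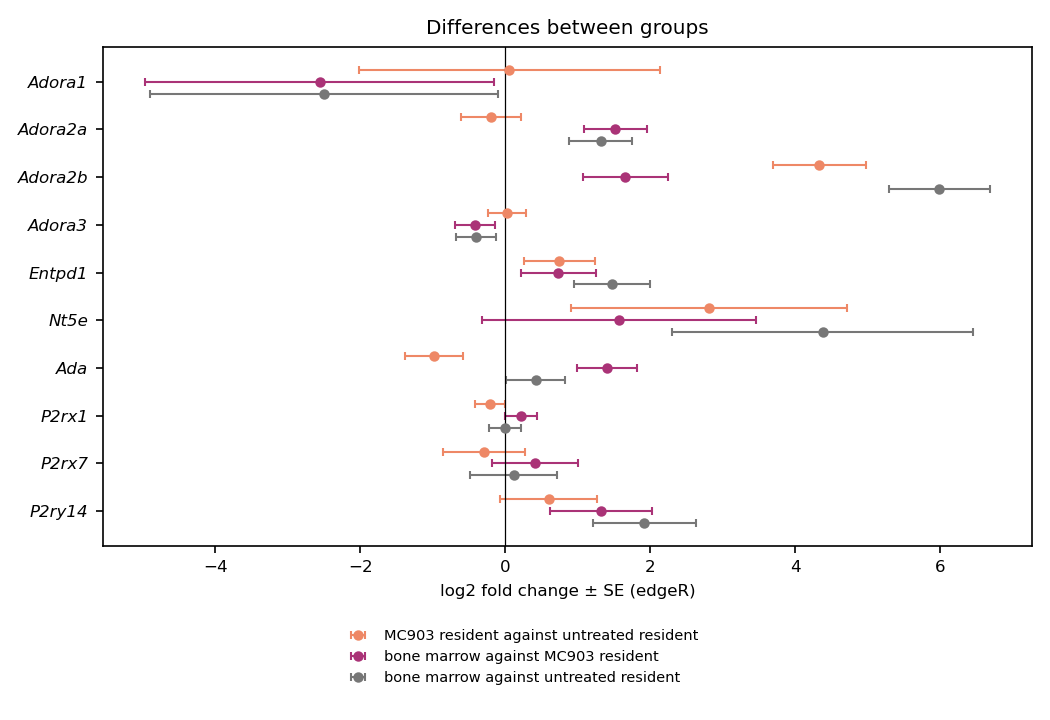
Log2 fold change ± SE (horizontal axis, edgeR) of each of the 10 genes in the 3 comparisons, by color. Adora2b lies at 4.33, 1.65 and 5.98, and Adora2a lies above 0 in both bone marrow comparisons; these share the bone marrow libraries and are not independent.

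Leaving out Adora2b and Nt5e, 8 of the 10 genes were tested in the bone marrow comparisons, which share their bone marrow libraries. All 10 passed the filter on low counts. Against MC903 resident cells 0 of the 8 were called by edgeR (2.27% of all genes tested were called). Ada and Adora2a had an unadjusted p under 0.05 (17.7% of all genes). DESeq2 called 1 of the 8, Adora2a, against 8.8% of all genes, and limma with voomWithQualityWeights called 2, Ada and Adora2a, against 9.86%. Against untreated cells 0 of the 8 were called by edgeR (6.87% of all genes). Adora2a, Entpd1 and P2ry14 had an unadjusted p under 0.05 (21.3% of all genes), DESeq2 called Adora2a, Entpd1 and P2ry14 (16.1% of all genes), and limma with voomWithQualityWeights called Adora2a and P2ry14 (10.5%). Without overlap, Adora2a was higher than in MC903 resident cells (4.0% of all genes were), and Adora2a and P2ry14 were higher than in untreated cells (5.11%). The median log2 difference of the 8 was 0.57 against MC903 resident and 0.26 against untreated cells, beside -0.28 and -0.14 over all genes tested, and -0.089 between MC903 and untreated resident cells beside 0.24. Both medians moved with the setting. Over all settings run, the median over all genes lay between -1.18 (without the filter on low counts) and -0.16 (without library 8) against MC903 resident cells, between -0.62 (without library 15) and -0.010 (without the filter) against untreated cells, and between 0.047 (without libraries 7, 8 and 15) and 0.73 (without the filter) between MC903 and untreated resident cells. With 1 library left out, the median of the 8 against MC903 resident cells ran from 0.075 (without library 15) to 0.87 (without library 10). Against untreated cells it ran from 0.13 (without library 2) to 0.50 (without library 13). Without library 15 the median of the 8 against MC903 resident cells was 0.075, beside -0.84 over all genes, and against untreated cells 0.27, beside -0.62. With Adora1, at 0 counts in those bone marrow libraries, set to the bound from 3 counts per library, the medians of the 8 were the same. The median of the 8 between MC903 and untreated resident cells ran from -0.22 (without library 5) to 0.13 (without library 1), beside 0.24 and 0.34 over all genes.

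Ordered by mean CPM per kilobase, untreated cells had Adora3 (113 ± 28.6) and P2rx1 (92.1 ± 7.82) on top, with ranges that overlapped, and Ada (21.9 ± 7.66) apart below them. Adora2b stood at place 7, at 1.16 ± 1.03 CPM per kilobase, among Entpd1, P2ry14 and Adora1, whose ranges overlapped with their neighbours. In MC903 resident cells Adora3 (115 ± 20.9), P2rx1 (78.9 ± 10.8) and Adora2b (23.1 ± 9.75) followed each other without overlap, and the range of Adora2b overlapped that of Ada (11 ± 4.8). In bone marrow cells the ranges of P2rx1 (91.7 ± 35.8), Adora3 (85.9 ± 41.5) and Adora2b (72.8 ± 9.48) overlapped, and all 3 stood apart from Ada (29.2 ± 16.2). Nt5e and Adora1 were the lowest 2 in each group.

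The genes whose log2 CPM followed each receptor most closely over the 14 libraries are given as a description, since the libraries share their groups and library 15. For Adora2b these were Ubac1 (Pearson r = 0.926), the aldo-keto reductase gene Akr1c12 (r = 0.925) and Gnb2, a G-protein beta subunit (r = 0.923). The means of Akr1c12 were 9.50 ± 10.3 CPM in untreated, 97.2 ± 32.7 CPM in MC903 resident and 219 ± 87.4 CPM in bone marrow libraries (SD, n = 5, 5 and 4). For Adora2a they were Fcho1 (r = 0.909), Rassf4 (r = 0.908) and Hnrnpll (r = 0.877). For Adora3 they were Vstm5 (r = 0.887), Recql5 (r = 0.884) and Mier3 (r = 0.871), for Ada Preb (r = 0.833), Phf13 (r = 0.809) and Errfi1 (r = 0.806), and for P2rx1 Zfp260 (r = 0.869), Fbxo25 (r = 0.839) and Pml (r = 0.838). For P2ry14 they were Maz (r = 0.934), Cnot3 (r = 0.929) and Plekhg5 (r = 0.921). Entpd1 was followed by Rab11fip5 (r = 0.903), Pla2g15 (r = 0.891) and Adam15 (r = 0.860).

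The pathway around these genes was followed with 91 further genes of ectonucleotidases, adenosine and AMP metabolism, nucleoside transport, P2X and P2Y receptors, ATP release, cyclic AMP signalling and the NLRP3 inflammasome, which P2X7 can trigger. Of these, 82 could be tested. Between MC903 and untreated resident cells edgeR called 0 of the 82 higher and 2 lower, a share of 2.44% beside 2.25% of all genes tested. An unadjusted p under 0.05 was found for 11 (12.6% of all genes). DESeq2 called 2 higher and 4 lower (5.6% of all genes), and limma with voomWithQualityWeights 0 and 6 (6.46%). The 2 called by edgeR were Crem, a cyclic AMP-responsive transcription factor, at 539 ± 78.1 (SD, n = 5) and 148 ± 29.8 CPM (SD, n = 5), and Nlrp3, the inflammasome sensor, at 70.1 ± 37.2 and 7.99 ± 3.81 CPM. They fell by 1.86 (SE 0.235, edgeR adjusted p = 9.1e-05) and by 3.13 (SE 0.470, edgeR adjusted p = 0.000619) on the log2 scale. No library of either group overlapped for either gene. The median log2 difference of the 82 was 0.24, the same to 2 decimals as over all genes tested. None of the 8 ectonucleotidases, 12 metabolic genes, 5 nucleoside transporters, 4 P2X, 5 P2Y or 5 ATP release genes tested was called in this comparison by edgeR; 5 of these 39 had an unadjusted p under 0.05, DESeq2 called 2 (Hprt and Nt5c) and limma with voomWithQualityWeights called 1 (Adk).

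Between bone marrow and MC903 resident cells 2 of the 82 were called higher and 1 lower by edgeR, a share of 3.66% beside 2.27% of all genes tested. Gnai1, which encodes 1 of the 3 inhibitory G-protein alpha subunits listed, through which Gi-coupled receptors lower cyclic AMP, stood at 350, 322, 298, 428 and 512 CPM in MC903 resident libraries 6 to 10 and at 26.3, 65.1, 82.8 and 81.3 CPM in bone marrow libraries 11, 13, 14 and 15, and fell by 2.58 (SE 0.286, edgeR adjusted p = 1.9e-05). The other two, Gnai2 and Gnai3, which were added after their values were seen, differed by 0.39 ± 0.187 and 0.11 ± 0.234 (edgeR adjusted p = 0.277 and 0.854). Per kilobase, the bone marrow libraries held 20.4 ± 8.39 CPM of Gnai1, 124 ± 20.9 of Gnai2 and 121 ± 17.8 of Gnai3 (SD, n = 4). Nlrp3 rose by 2.30 ± 0.470 (edgeR adjusted p = 0.00933), to 39.6 ± 22.4 CPM, which did not pass the test against untreated cells (-0.82 ± 0.466, edgeR adjusted p = 0.334). Pde4b, a phosphodiesterase that breaks down cyclic AMP, stood at 24.7, 21.8, 20.9 and 90.8 CPM in bone marrow libraries 11, 13, 14 and 15 against 0.311 to 6.81 CPM in MC903 resident libraries, a log2 difference of 3.88 ± 0.860 (edgeR adjusted p = 0.0177). Without library 15 the Pde4b difference was 3.06 with an edgeR adjusted p of 0.0766, and without MC903 resident library 6 or 9 the adjusted p was 0.0539 or 0.0659.

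Between bone marrow and untreated cells 4 of the 82 were called higher and 4 lower by edgeR, a share of 9.76% beside 6.87% of all genes tested. Gnai1 (558 ± 108 against 63.9 ± 26.3 CPM) fell by 3.12 (SE 0.293, edgeR adjusted p = 1.1e-06) and Crem fell by 1.20 (SE 0.248, edgeR adjusted p = 0.0039). Nt5c, which encodes a cytosolic nucleotidase, rose by 1.25 ± 0.219 (edgeR adjusted p = 0.000925), from 67.4 ± 18 to 160 ± 23.8 CPM. These 3 calls held with each library left out in turn. Pde4b rose by 3.90 ± 0.860 (edgeR adjusted p = 0.00652), with an adjusted p of 0.0501 without library 15. The inflammasome genes Casp1, the protease that matures interleukin-1β, and Pycard, its adaptor, rose by 5.66 ± 1.55 and 1.12 ± 0.295 (edgeR adjusted p = 0.0282 and 0.0232). Pde4d, another phosphodiesterase, fell by 1.24 (SE 0.320) and Prkacb, a catalytic subunit of protein kinase A, fell by 0.79 (SE 0.224; edgeR adjusted p = 0.0201 and 0.0352). Without library 15 these last 4 kept their direction, with log2 differences of 5.28 for Casp1, 1.0 for Pycard, -1.05 for Pde4d and -0.64 for Prkacb, and missed the threshold (edgeR adjusted p = 0.0578, 0.0699, 0.0517 and 0.0985). They also missed it without other single libraries, with edgeR adjusted p-values up to 0.0697: Casp1 without untreated library 2 or 4, Pde4d without bone marrow library 11, Pycard without untreated library 1, 2, 3 or 4 or bone marrow library 11, and Prkacb without untreated library 2 or 3 or bone marrow library 11 or 14. Casp1 in libraries 11, 13 and 14 stood at 9.97, 15.6 and 14.8 CPM, against at most 1.01 CPM in untreated cells and 29.0 CPM in library 15. It was at 0 counts in 3 untreated libraries and reached 10 counts in 2, so its fitted difference from untreated cells depends on the model.

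**Figure D4:**
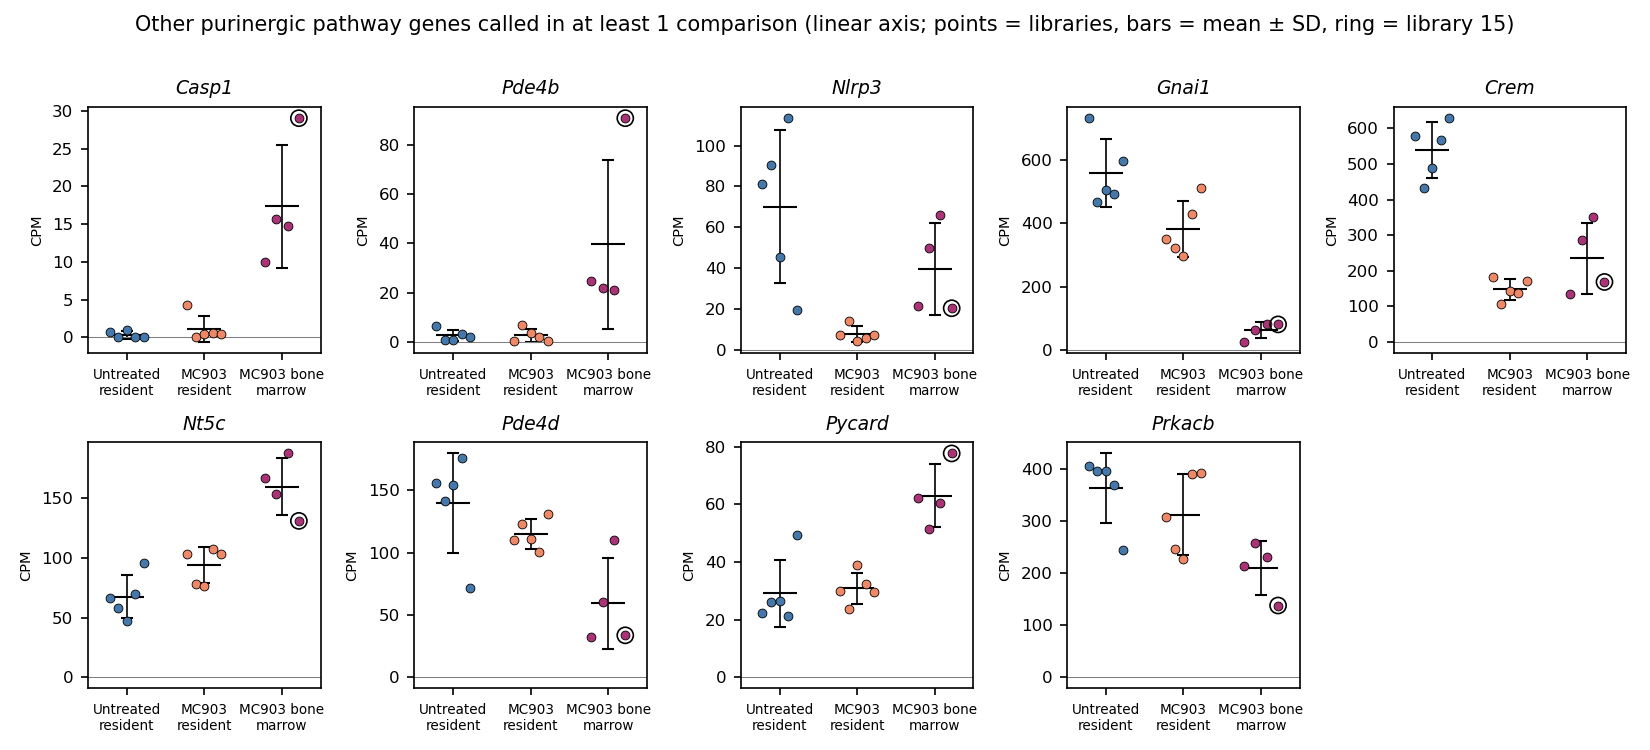
CPM (vertical axes, linear, with a scale of their own) of the 9 further pathway genes called in at least 1 comparison, by library and group; points are libraries, bars the mean ± SD, and a ring marks library 15. Gnai1 lies at 26.3 to 82.8 in the bone marrow libraries and at 298 or more in every resident library, and the means of Crem and Nlrp3 are lowest in MC903 resident cells.

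By list, edgeR called 1 higher and 4 lower of the 36 cyclic AMP genes against untreated cells, and 1 higher and 1 lower against MC903 resident cells, shares of 13.9% and 5.56% beside 6.87% and 2.27% of all genes. Of the 7 inflammasome genes, 2 were called higher against untreated and 1 against MC903 resident cells, shares of 28.6% and 14.3% beside the same. Without library 15 edgeR called 0 inflammasome genes against untreated cells (2 with an unadjusted p under 0.05) and 1, Nlrp3, against MC903 resident cells. The log2 differences of Casp1 and Pycard from untreated cells were then 5.28 and 1.0, beside 5.66 and 1.12 with library 15. Those of Casp1 depend on the model, since its untreated mean was 0.338 CPM. Leaving out library 15, edgeR called 3 cyclic AMP genes lower against untreated cells (Crem, Gnai1 and Pde8b), beside 6.36% of all genes. Against MC903 resident cells it called 2 lower (Gnai1 and Pde8b), beside 2.89%. Pde8b stood at 0 CPM in bone marrow libraries 11, 13 and 14, so its fitted differences there depend on the model. Its means were 4.45 and 1.74 CPM in untreated and MC903 resident cells. With library 15 edgeR did not call Pde8b (adjusted p = 0.449 against untreated and 0.772 against MC903 resident cells). Of the 12 genes of adenosine and AMP metabolism, Nt5c was called in the comparison with untreated cells. None of the ectonucleotidases, nucleoside transporters, P2X, P2Y or ATP release genes tested was called by edgeR in either bone marrow comparison; 3 and 6 of the 27 had an unadjusted p under 0.05 against MC903 resident and untreated cells (17.7% and 21.3% of all genes), DESeq2 called 1 and 3 of them (8.8% and 16.1% of all genes), and limma with voomWithQualityWeights 4 and 3 (9.86% and 10.5%). Both called P2rx5, an ATP-gated channel gene, against untreated cells, which was named after its values were seen. The median log2 difference of the 82 was -0.093 against MC903 resident and 0.015 against untreated cells.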

How the data were processed

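RNA was sequenced from 14 pools of up to 100 sorted ear skin mast cells, per the labels' protocols with SMART-Seq HT cDNA (full-length, no molecular identifiers) and Nextera XT libraries. The deposited table holds raw read counts for each gene, in whole numbers, per the file headers. STAR, featureCounts and the mm10 build are named in the submitters' processing notes, while versions and the strand setting were not given in the sources used here. Of the gene identifiers, 55094 occurred in GENCODE M21 with the same version and coordinates on GRCm38, and 55394 had a symbol. Genes were filtered with filterByExpr (minimum count 10, total 15; 21014 tested), scaled by TMM and fitted over all 14 libraries in 3 groups with edgeR 4.0.16 (glmQLFit robust, glmQLFTest; R 4.3.3). Benjamini-Hochberg adjustment ran over all genes tested, and a gene with an adjusted p-value under 0.05 was called. Standard errors were taken as |log2 fold change| divided by the square root of F. CPM use library totals times TMM factors. DESeq2 1.42.0 and limma 3.58.1 served as alternatives. The fit was also run on simulated data, whose outcome is not given here. The members, lists and rules were chosen with earlier results of these data known. Named were all members, list genes called in at least 1 comparison with a mean of at least 10 CPM in a group, and, for members with a mean of at least 20 CPM in a group, the 3 genes with the highest Pearson correlation of log2 CPM. No p-value or call is given for a member in the treatment contrast that chose the set, nor for Adora2b and Nt5e in any. No paired analysis was run, since the labels name no animal or pair. Whether MC903 resident and bone marrow libraries came from the same mice was not given in the sources used here. The tests treat all libraries as independent.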

Additional observations from a re-analysis of the deposited data

Results flagged for a closer look

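In 57 sets of libraries (a gene in a group), 1 library lay far from the rest of its group in 9, by the gap to its nearest neighbour over the group's range. Chance gives about 1 in 20. For Adora1 and Nt5e below, every other library of the group was at 0 counts, so any count would have stood apart, and that rate does not apply. Of the 9, 3 were in bone marrow library 15, which held 92.4 CPM of Entpd1 (others 12.7 to 21.7), 90.8 CPM of Pde4b (others 20.9 to 24.7) and 1.76 CPM of Adora1 (others 0). This library also held 12742 CPM of macrophage and dendritic cell markers, and their part in these values was not tested. Untreated library 5 stood apart for 4 genes, with 240 CPM of Adora3 (others 437 to 512), 6.96 CPM of Entpd1 (others 13.3 to 15.8), 245 CPM of Prkacb (others 369 to 407) and 49.5 CPM of Pycard (others 21.1 to 26.4). Untreated library 4 held 0.427 CPM of Nt5e (others 0), and MC903 resident library 6 held 4.25 CPM of Casp1 (others up to 0.534).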

How the results depend on the processing

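No paired analysis was possible because the animal behind each library was not given, and the running library numbers do not show whether libraries are paired. Of 692 single-gene log2 differences recomputed under other settings, 29 had the other sign, 17 of them in the bone marrow comparisons and 12 between MC903 and untreated resident cells. Genes called between MC903 and untreated resident cells numbered 473 (120 higher, 353 lower): 1072 with DESeq2 (600 higher, 472 lower, which turned the balance), 1357 with limma voomWithQualityWeights (660, 697), 253 without libraries 7, 8 and 15, and 312 to 516 with 1 library left out (312 without library 1, 314 without library 6). With DESeq2 size factors in edgeR they split into 207 higher and 294 lower, and under TMM scaling from genes of at least 10 CPM into 250 and 266. Pathway genes called there numbered 2, and 6 without the filter on low counts, 6 with DESeq2 and 6 with limma (2 to 3 with 1 library left out). Between bone marrow and MC903 resident cells 477 genes were called (277 higher, 200 lower): 748 without the filter, 1720 with DESeq2 (445, 1275), 2073 with limma (679, 1394), 315 with only these groups fitted, and 302 to 704 with 1 library left out (305, 302 and 314 without library 6, 7 and 9). The other scalings gave 167 higher and 242 lower (DESeq2 size factors) and 178 and 254, and more genes were lower than higher also without library 6, 7, 8, 9, 13 or 15 and without 7, 8 and 15 together. Of the members other than Adora2b and Nt5e 0 were called, but 2 without the filter, 1 with DESeq2 and 2 with limma. With only these groups fitted 1 was called, without libraries 7, 8 and 15 also 1, and 0 to 1 with 1 library left out. Of the pathway genes 3 were called, but 6 without the filter, 13 with DESeq2 and 15 with limma. With 1 library left out 2 to 6 of them were called (6 without library 14 or 15). Between bone marrow and untreated cells 1443 genes were called (734 higher, 709 lower), 2757 with DESeq2 (1287, 1470), 2212 with limma (1088, 1124) and 1140 to 1549 with 1 library left out. Members other than Adora2b and Nt5e called numbered 0, but 1 without the filter, 3 with DESeq2, 2 with limma and 0 to 1 with 1 library left out. Pathway genes called numbered 8, but 15 with DESeq2, 14 with limma and 5 to 11 with 1 library left out (5 without library 2 or 15). The cause of these shifts was not tested.

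Some log2 differences turned direction. Entpd1 between bone marrow and MC903 resident cells, 0.73, was -0.66 without libraries 7, 8 and 15 and -0.36 to 1.01 with 1 library left out. P2rx7 there, 0.41, was -0.24 with limma, -1.0 without libraries 7, 8 and 15 and -0.64 to 0.75 with 1 library left out. P2rx7 between bone marrow and untreated cells, 0.11, was -0.73 with limma, -0.95 without those 3 libraries and -0.94 to 0.46 with 1 library left out (-0.057 without library 2). P2rx1 there, -0.0065, was 0.012 with TMM factors from genes of at least 10 CPM, 0.0088 without the filter, 0.00765 with limma, 0.14 without those 3 libraries and -0.19 to 0.15 with 1 library left out. The log2 value of Nt5e between MC903 and untreated resident cells, 2.81, was 6.91 without library 4. Between MC903 and untreated resident cells, where no member is tested, 4 more values turned sign: Adora1, 0.057, ran from -1.47 to 1.73 with 1 library left out; Adora2a, -0.20, was 0.12 without library 1; Adora3, 0.022, was -0.12 without library 5, -0.078 with limma and -0.015 without the filter; and P2rx7, -0.29, was 0.013 without library 1 and 0.048 without libraries 7, 8 and 15. Adora2a against MC903 resident cells passed the threshold without the filter (adjusted p = 0.0202), with DESeq2, with limma and with only these groups fitted (0.0456), and its adjusted p over all alternatives ran from 0.0202 to 0.252. Ada there ran from 0.0154 to 0.240. P2ry14 against untreated cells passed without the filter (0.00992), with DESeq2 (0.0491) and with limma (0.0327). Pools of up to 100 cells without molecular identifiers limit what a low count, such as those of Nt5e and Adora1, can show.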

Other observations

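Among genes outside the 10, the equilibrative nucleoside transporter gene Slc29a1, which moves adenosine across the plasma membrane, stood at 1972 ± 403 CPM in untreated (SD, n = 5), 1884 ± 644 in MC903 resident (SD, n = 5) and 1539 ± 366 CPM in bone marrow libraries (SD, n = 4). Adk, adenosine kinase, which returns adenosine to AMP inside the cell, stood at 955 ± 200, 637 ± 149 and 908 ± 261 CPM in the same order, and its adjusted p by edgeR was 0.184 between MC903 and untreated resident cells. P2rx4, another ATP-gated channel, stood at 230 ± 53.9, 222 ± 49.4 and 278 ± 62.4 CPM. These genes were chosen after their values were seen, and edgeR called 0 of them in the 3 comparisons. Adk had an unadjusted p under 0.05 by edgeR in both comparisons with MC903 resident cells, where its mean was lowest, and limma with voomWithQualityWeights called it in both.

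Other P2Y receptor genes were seen in bone marrow library 15 at 107 CPM for P2ry6, a UDP receptor, 43.6 CPM for P2ry12 and 15.1 CPM for P2ry13, both ADP receptors. In the other 3 bone marrow libraries P2ry12 and P2ry13 were at 0 and P2ry6 at no more than 0.209 CPM. Over the resident libraries P2ry6 reached 6.18, P2ry12 2.04 and P2ry13 0.573 CPM. The summed macrophage and dendritic cell, neutrophil and platelet markers were each highest in the same library (12742, 74.5 and 1315 CPM), and their part in these values was not tested.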
